A study of Mus musculus with 11 samples.

Results

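Axon guidance ligands and receptors were followed here across whole brains of mice lacking the β4 nicotinic receptor subunit and of wild-type mice. This subunit is part of an ion channel gated by acetylcholine. The labels call the wild-type mice littermates of nicotinic receptor subunit mutants and do not name the subunit. The set holds every probe set assigned to 1 gene whose symbol belongs to the semaphorin (Sema), plexin (Plxn), ephrin (Efna, Efnb), Eph receptor (Epha, Ephb), netrin (Ntn), Unc5, Slit or Robo families, or is Nrp1, Nrp2, Dcc or Neo1. The rule used names and no measured value. It gave 58 probe sets of 45 genes among the 12488 probe sets of the arrays. No probe set matched a Slit gene or Nrp2. Unc50 and the Slitrk genes, whose symbols begin alike but which belong to other families, were left out.

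RNA was measured on 1 oligonucleotide array per brain from 11 C57BL/6J mice aged 6 to 9 weeks. The 6 wild-type mice comprised 4 males (wild-type 1, 2, 4 and 6) and 2 females (wild-type 3 and 5). The 5 mice homozygous null for β4 comprised 2 males (null 1 and 2) and 3 females (null 3, 4 and 5). Wild-type males were 9, 8, 6 and 6 weeks old and wild-type females 7 and 6, null males 9 weeks and null females 7, 8 and 8. The labels name no treatment and no second allele. No probe set used here is named for Chrnb4, the disrupted gene, so the genotype was not checked. The numbers of 3 wild-type mice (4, 5 and 6) begin with the letters LT, and those of the other 3 and of all null mice with B4. In bulk RNA of a whole brain, fewer cells of a type and less RNA per cell cannot be told apart. Each p-value measures the spread between these mice.

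Guidance molecules steer the tips of growing axons by attraction or repulsion. Semaphorins signal through plexins, with neuropilins as co-receptors for the secreted class. Netrins attract through Dcc and neogenin (Neo1) and repel through Unc5 receptors, and Slits repel through Robo receptors. Ephrins are held on the cell surface, the A class by a lipid anchor and the B class by a transmembrane segment, and signal with Eph receptor tyrosine kinases in both directions. In the adult brain the same molecules are known for roles in synapse maintenance, dendritic spines and the limits of regrowth after injury.

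The RefSeq promoter windows of 4 members on which the results below turn are shown first. Neo1 and Sema7a had a probe set whose signal separated the genotypes, although the brighter Sema7a probe set, 93411_at, did not. Epha4 had one of the lowest p-values for genotype, and Unc5c was the member with the lowest p-value for a fall in null males. Each window runs from 250 bases before to 50 bases after the annotated start, 5′ to 3′ on the gene's strand, in build GRCm38.p6. Capitals mark the GC box, searched as GGGCGG and, for the other strand, CCGCCC. The windows are chr9:59036392-59036691 (minus strand) for Neo1, chr9:57939862-57940161 (plus strand) for Sema7a, chr1:77515039-77515338 (minus strand) for Epha4 and chr3:141465314-141465613 (plus strand) for Unc5c.
Neo1: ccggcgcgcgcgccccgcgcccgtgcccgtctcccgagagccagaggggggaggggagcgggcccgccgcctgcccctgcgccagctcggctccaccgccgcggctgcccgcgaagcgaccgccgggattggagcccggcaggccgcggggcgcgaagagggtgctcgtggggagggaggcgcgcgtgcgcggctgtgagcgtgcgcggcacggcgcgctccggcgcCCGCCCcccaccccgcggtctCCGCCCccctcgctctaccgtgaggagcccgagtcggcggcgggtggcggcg
Sema7a: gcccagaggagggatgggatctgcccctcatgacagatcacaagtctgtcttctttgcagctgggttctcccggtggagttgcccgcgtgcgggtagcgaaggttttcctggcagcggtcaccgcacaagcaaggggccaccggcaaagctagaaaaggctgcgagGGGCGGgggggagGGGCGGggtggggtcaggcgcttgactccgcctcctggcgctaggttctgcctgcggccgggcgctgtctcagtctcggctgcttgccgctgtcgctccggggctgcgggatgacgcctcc
Epha4: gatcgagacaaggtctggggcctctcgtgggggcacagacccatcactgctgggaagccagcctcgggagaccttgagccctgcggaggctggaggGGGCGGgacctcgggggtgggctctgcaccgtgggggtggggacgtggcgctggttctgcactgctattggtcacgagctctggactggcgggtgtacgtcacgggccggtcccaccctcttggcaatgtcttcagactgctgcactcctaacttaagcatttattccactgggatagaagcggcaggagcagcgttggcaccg
Unc5c: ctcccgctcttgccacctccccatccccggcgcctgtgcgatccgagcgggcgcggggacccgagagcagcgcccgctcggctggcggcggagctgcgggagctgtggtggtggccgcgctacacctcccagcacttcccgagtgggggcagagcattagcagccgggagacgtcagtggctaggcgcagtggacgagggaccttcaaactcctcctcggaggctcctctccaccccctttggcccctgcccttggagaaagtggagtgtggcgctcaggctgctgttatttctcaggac
The Neo1 window held 2 GC boxes and 54 CpG dinucleotides at 82.7% G and C. The Sema7a window held 2 GC boxes and 23 CpG, that of Epha4 held 1 and 17, and that of Unc5c held 0 and 24. The 4 windows had 0 matches to the E-box CACGTG, the CRE TGACGTCA, or TATAAA and its reverse complement TTTATA. Across all 32851 windows of the table, 35.7% held a GC box, 7.15% the E-box, 1.79% the CRE and 13.6% the TATA letters. Of the member genes, 38 of 45 had at least 1 window, and 74.5% of their 51 windows held a GC box. The median number of CpG was 20 in these windows and 7 over all windows. These matches describe the letters of the windows and say nothing of factor binding.

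One measure of RNA quality moved with genotype. The ratio of 3′ to 5′ signal of the Gapdh control probe sets was 4.24 ± 0.862 (SD, n = 6) in wild-type against 2.04 ± 1.21 (SD, n = 5) in null brains (two-sided exact permutation p = 0.00433). Null males had ratios of 0.859 and 0.798, null females 2.75, 2.19 and 3.58, and wild-type brains 3.57 to 5.92. The Actb ratio was 1.53 and 1.33 in the null males and 2.89 to 5.45 in the other 9 brains. The median signal was 58.3 and 56.3 in the null males and 43.6 to 49.75 elsewhere, although the trimmed mean was 150.1 on every array. The 2 null males therefore stand apart from the rest, and results resting on them are given with and without them. The part of RNA quality in the results was not tested.

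Of the 58 guidance probe sets, 37 of 31 genes had a mean signal high enough to test (a mean log2 signal of at least 4.69, a signal of 25.8). Just above this limit lay Sema7a 97794_at at 4.98 and Ephb3 at 4.9996, and just below it Sema4b 94637_at at 4.43 and Sema5a at 4.09. Sema7a 97794_at was the 1 tested probe set whose wild-type mean lay under the limit, so its place among the tested ones depends on the null brains. Each count below that includes Sema7a 97794_at shares this limit. The 21 untested probe sets had mean signals from 3.06 (Ntn1 97728_at) to 22.6 (Sema4b 94637_at). For 14 genes no probe set was tested: the ligands Efna1, Efna4, Efna5, Efnb1, Sema3a, Sema3b, Sema3c, Sema3f, Sema5a and Sema6a, and the receptors Dcc, Epha2, Epha3 and Robo3. Secreted class 3 semaphorins other than Sema3e all lay under this limit. Sema6a, a transmembrane semaphorin, had the highest single untested value, 49.3 in null 1. Both null males lay above the other 9 brains for 4 untested probe sets (Efna1, Epha5 98376_at, Sema3a and Sema3b 99460_at) and below them for 0. Over all 4969 untested probe sets the share above was 8.37%. Sema3a, a secreted repellent that binds neuropilin-1, had signals of 35.0 and 37.4 in the null males and 4.1 to 25.6 in the others.

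No guidance probe set passed the adjusted threshold of 0.05 for genotype. The count was 0 of 37, against 0.0268% (2 of 7453) of all tested probe sets, and the lowest adjusted p among the guidance probe sets was 0.0773. At an unadjusted p under 0.05 there were 10 of 37, or 27%, against 23.1% of all probe sets. Of these, 8 were higher in null brains (background 13.4%) and 2 lower (background 9.69%). In all, 22 of 37 differences lay above 0, against 54% of all probe sets. These splits depend on the scaling: at an unadjusted p under 0.05, 7 were higher and 3 lower after quantile normalization and 7 higher and 6 lower after median centring. Of all probe sets past that p, 58.1% were higher as deposited, 46.6% after quantile normalization and 23.85% after median centring. Differences above 0 numbered 17 of 37 after quantile normalization and 16 after median centring. The median of all probe sets moved from 0.03 to -0.04 and -0.15. The median log2 difference was 0.09 for the guidance probe sets and 0.03 for all. The count of adjusted calls depended on single female wild-type brains: without wild-type 3 it was 4 (Epha4, Neo1, Plxnb2 and Sema7a), when 2.62% of all probe sets passed. Leaving out wild-type 5 gave 8, adding Efnb3, Epha7, Plxna3 and Unc5c, when 11.8% of all probe sets passed. Among B4 mice alone it was 2, Epha4 and Sema7a, against 0.349% of all probe sets.

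**Figure D1:**
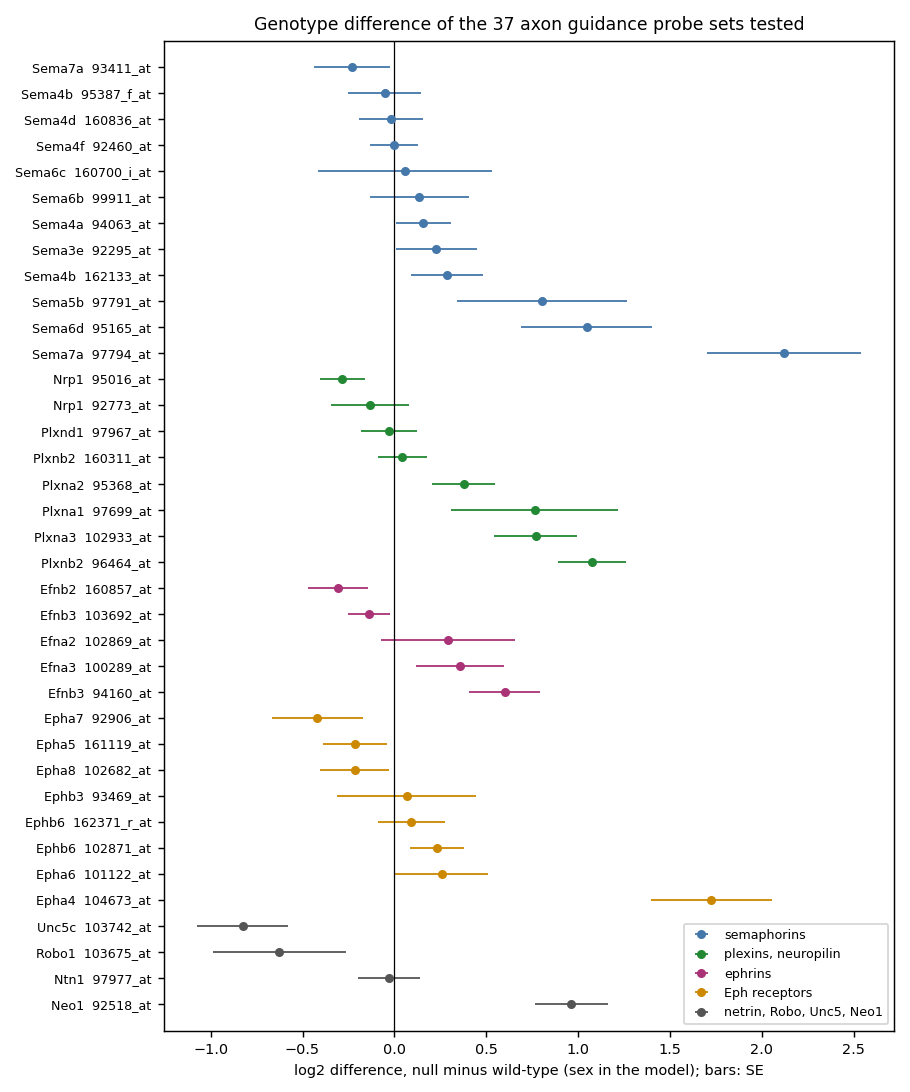
Genotype differences of the 37 tested guidance probe sets, grouped by family: each point is the log2 difference, null minus wild-type with sex as covariate, and each bar its standard error. Sema7a 97794_at lies farthest to the right at 2.12, Unc5c farthest to the left at -0.83, and Sema4f next to 0.

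Netrin signalling held both a receptor with higher and a receptor with lower signal in null brains. Neo1 (neogenin, a receptor for netrins and repulsive guidance molecules; 92518_at, chromosome 9) had signals of 145.0 and 180.1 in the null males and 84.4, 101.9 and 95.6 in the null females. In wild-type brains its lowest, median and highest signals were 52.9, 60.6 and 77.0. All 5 null brains lay above all 6 wild-type brains. The mean was 121.4 ± 40.1 (SD, n = 5) in null against 64.0 ± 10.1 (SD, n = 6) in wild-type brains, and the log2 difference 0.96 (SE 0.20, adjusted p = 0.0773). Within males Neo1 rose by 1.38 (SE 0.21, adjusted p = 0.000449), and within females the difference was 0.50 (SE 0.23, unadjusted p = 0.0460 in the limma fit, adjusted p = 0.995).

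Unc5c, a repulsive netrin receptor (103742_at, chromosome 3), was lower in part of the null brains. Its signals were 143.3 and 152.5 in the null males, 481.4, 390.2 and 272.1 in the null females, and 369.6, 392.65 and 520.3 (lowest, median, highest) in wild-type brains. Both null males lay below all other brains, 2 null females lay within the wild-type range, and null 5 lay between. The log2 difference was -0.83 (SE 0.25, adjusted p = 0.107) over both sexes. It fell by 1.50 (SE 0.21, adjusted p = 0.000207) within males and differed by -0.08 (SE 0.22, adjusted p = 0.995) within females. The male and female differences were themselves different (interaction 1.42, SE 0.30, adjusted p = 0.00816). This call was also made in each fit that left out 1 of the 11 mice. In 4 of those fits the null males or wild-type females are a single mouse, whose spread is taken from the other groups.

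The remaining members of these families did not pass any test for genotype. Ntn1, the secreted netrin-1 (97977_at), averaged 98.9 ± 17.7 (SD, n = 6) in wild-type against 93.7 ± 15.6 (SD, n = 5) in null brains, and its other probe set, 97728_at, had signals of 1.8 to 5.2 and was not tested. Robo1, a Slit receptor, had 43.3 ± 15.3 (SD, n = 6) and 29.2 ± 12.2 (SD, n = 5), a log2 difference of -0.63 (SE 0.36, adjusted p = 0.306), with similar values in males (-0.62) and females (-0.63). Dcc, the attractive netrin receptor, had signals of 3.3 to 7.4 and Robo3, known for midline crossing, 9.0 to 27.3 over all brains, both under the limit for testing.

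Semaphorins were the largest family, with 12 tested probe sets of 10 genes, of which 8 were higher in null brains with a median log2 difference of 0.15. This median became 0.04 after quantile normalization and -0.03 after centring each array on its median. The highest was Sema7a (97794_at, chromosome 9), a lipid-anchored semaphorin that also binds integrins. Its signals were 138.3 and 119.7 in the null males, 58.5, 35.1 and 32.1 in the null females, and 8.1, 20.15 and 29.9 (lowest, median, highest) in wild-type brains. The genotypes did not overlap, although null 5 lay only just above the highest wild-type brain. The log2 difference was 2.12 (SE 0.42, adjusted p = 0.0773). Sema7a 97794_at rose by 2.79 (SE 0.53, adjusted p = 0.00159) within males and differed by 1.38 (SE 0.55, adjusted p = 0.995) within females. The brighter Sema7a probe set, 93411_at, did not share this pattern: 278.0 ± 67.9 (SD, n = 6) in wild-type against 238.1 ± 43.5 (SD, n = 5) in null brains, a log2 difference of -0.23 (SE 0.20, adjusted p = 0.507).

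Sema6d, a transmembrane semaphorin that binds plexin-A1 (95165_at, chromosome 2), was high in the null males at 140.2 and 93.2. The null females, at 40.3, 40.2 and 59.2, overlapped the wild-type brains, whose lowest, median and highest signals were 16.1, 38.45 and 48.1. Sema6d rose by 1.75 (SE 0.41, adjusted p = 0.0057) within males and differed by 0.26 (SE 0.43) within females. Over both sexes the log2 difference was 1.05 (SE 0.36, adjusted p = 0.125). Sema6b, another class 6 member, had 109.8 and 122.1 in the null males, 55.0 to 70.9 in the null females and 46.5 to 117.4 in wild-type brains, so the groups overlapped. Its differences were 0.62 (SE 0.32) within males and -0.40 (SE 0.33) within females (interaction -1.03, SE 0.46, adjusted p = 0.149), and 0.14 (SE 0.27, adjusted p = 0.786) over both sexes.

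Among the other semaphorins, Sema4f (-0.0020), Sema4d (-0.02) and, among plexins, Plxnd1 (-0.03) had the smallest genotype differences of the set. Sema4f, a transmembrane class 4 semaphorin, measured 312.9 ± 49.7 (SD, n = 6) in wild-type against 321.4 ± 33.3 (SD, n = 5) in null brains. Sema4d, a ligand of plexin-B1, measured 112.2 ± 23.1 (SD, n = 6) and 102.9 ± 30.1 (SD, n = 5), with an SE of 0.17 for the difference (adjusted p = 0.957). Sema3e, the ligand of Plxnd1, had a log2 difference of 0.23 (SE 0.22), Sema4a 0.16 (SE 0.15), Sema5b 0.80 (SE 0.46) and Sema6c 0.06 (SE 0.47). Sema4b, with 2 tested probe sets, differed by 0.29 and -0.05. Sema5b, which carries thrombospondin repeats, had 114.2 and 88.4 in the null males and 16.2 to 83.3 elsewhere, and Sema6c ranged from 14.8 to 103.0 within the wild-type brains alone.

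Of the 8 tested probe sets of plexins and neuropilins, the semaphorin receptors, the null males lay above all other brains for 4, where 20.7% of all tested probe sets did. Plxnb2, a receptor for class 4 semaphorins (96464_at, chromosome 15), had signals of 113.0 and 182.9 in the null males, 61.0, 73.2 and 73.8 in the null females and 37.2, 54.05 and 68.5 (lowest, median, highest) in wild-type brains. The 2 null females at 73.2 and 73.8 lay above all wild-type brains and null 3 lay within their range. The log2 difference was 1.07 (SE 0.19, adjusted p = 0.0773), with a rise of 1.29 (SE 0.24, adjusted p = 0.00134) within males and a difference of 0.83 (SE 0.25, adjusted p = 0.995) within females. Its brighter probe set, 160311_at, measured 201.2 ± 26.6 (SD, n = 6) in wild-type against 209.0 ± 16.6 (SD, n = 5) in null brains.

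The class A plexins, which pair with neuropilins or bind class 6 semaphorins directly, shared the split between null males and all others. Plxna1 (97699_at, chromosome 6) had 98.5 and 116.4 in the null males, 30.1, 15.8 and 25.1 in the null females, and 14.3, 33.55 and 38.3 (lowest, median, highest) in wild-type brains. Plxna1 rose by 1.95 (SE 0.42, adjusted p = 0.00385) within males and differed by -0.55 (SE 0.44) within females, a contrast that itself passed the test (interaction -2.50, SE 0.61, adjusted p = 0.0164). That call was lost without wild-type 5, without null 1, without null 2 and in the B4 mice alone. Plxna3 (102933_at, X chromosome) had 177.3 and 180.7 in the null males and 50.8 to 105.3 elsewhere, a rise within males of 1.25 (SE 0.24, adjusted p = 0.00207). Plxna2 (95368_at, chromosome 1) had 136.1 and 124.8 in the null males and 56.5 to 105.9 elsewhere, a rise of 0.61 (SE 0.21, adjusted p = 0.0447) that lost its call under quantile normalization, median centring, age or number letters as a further term, no signal filter and in the B4 mice alone, and on leaving out wild-type 1, 4 or 6 or null 1, 2 or 4. In females the differences were 0.24 (SE 0.26) for Plxna3 and 0.12 (SE 0.23) for Plxna2. Over both sexes they were 0.77 (SE 0.23, adjusted p = 0.104) for Plxna3, 0.38 (SE 0.17, adjusted p = 0.212) for Plxna2 and 0.76 (SE 0.45, adjusted p = 0.32) for Plxna1.

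Nrp1, the co-receptor of Sema3a, was measured by 2 probe sets with lower means in null brains. For 95016_at the null signals were 161.5, 183.2, 179.3, 175.2 and 188.2, and the wild-type brains ran from 184.7 to 264.7 with a median of 206.75. Of the 5 null brains 4 lay below every wild-type brain. The log2 difference was -0.28 (SE 0.12, adjusted p = 0.19), with -0.20 in males and -0.37 in females. As deposited, 95016_at thus did not share the split between null males and the rest. The dimmer 92773_at differed by -0.13 (SE 0.21), with -0.46 in males and 0.22 in females, and the groups overlapped. Within males Nrp1 was called by 1 probe set after quantile normalization and by both after median centring, when 34.1% and 37.2% of all probe sets were called. Plxnd1 measured 165.6 ± 29.1 (SD, n = 6) in wild-type against 163.0 ± 15.4 (SD, n = 5) in null brains.

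Ephrins, the Eph ligands, had 5 tested probe sets of 4 genes. Efna3, a lipid-anchored ephrin (100289_at, chromosome 3), had 502.7 and 522.1 in the null males, 237.2, 212.1 and 228.2 in the null females, and 181.2, 309.55 and 427.6 (lowest, median, highest) in wild-type brains. Efna3 rose by 0.80 (SE 0.28, adjusted p = 0.0415) within males and differed by -0.14 (SE 0.29) within females, with 0.36 (SE 0.24, adjusted p = 0.377) over both sexes. Its call in males was lost after median centring, with no signal filter and with no variance trend. It was also lost on leaving out wild-type 1, 2 or 6 or any 1 of the null brains. Efnb3, a transmembrane ephrin of the corticospinal midline (94160_at, chromosome 11), had 230.9 and 326.9 in the null males and 98.3 to 153.2 in the other 9 brains. It rose by 1.01 (SE 0.20, adjusted p = 0.00227) within males and differed by 0.14 (SE 0.21) within females, with 0.60 (SE 0.19, adjusted p = 0.111) over both sexes. The brighter Efnb3 probe set 103692_at had 491.6 and 538.6 in the null males and 579.6 to 746.0 elsewhere, lower where 94160_at was higher. Efnb2, a ligand of EphB receptors and EphA4, measured 276.3 ± 58.5 (SD, n = 6) in wild-type against 215.7 ± 31.4 (SD, n = 5) in null brains (log2 difference -0.31, SE 0.17, adjusted p = 0.277). Efna2 measured 37.4 ± 17.8 (SD, n = 6) and 42.2 ± 10.05 (SD, n = 5).

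Eph receptors had 8 tested probe sets of 7 genes and a median log2 difference of 0.08, which became -0.11 after quantile normalization and -0.10 after median centring. Epha4, a receptor for ephrins of both classes (104673_at, chromosome 1), had 145.8 and 176.3 in the null males, 41.0, 42.0 and 49.1 in the null females, and 12.7, 31.8 and 46.2 (lowest, median, highest) in wild-type brains. The null females lay in or just above the upper part of the wild-type range, and the null males stood clear of it. The mean was 90.8 ± 65.1 (SD, n = 5) in null against 30.9 ± 13.0 (SD, n = 6) in wild-type brains, and the log2 difference 1.72 (SE 0.33, adjusted p = 0.0773). Epha4 rose by 2.26 (SE 0.41, adjusted p = 0.00117) within males and differed by 1.13 (SE 0.43, adjusted p = 0.995) within females. In the B4 mice alone the difference was 1.97. These include both null males and only 3 wild-type mice. The only wild-type female among them, wild-type 3, had the lowest Epha4 signal of all brains, 12.7. A second Epha4 probe set, 161866_at, had signals of 2.2 to 20.2 and was not tested.

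Epha7, an ephrin-A receptor (92906_at, chromosome 4), had 108.5 and 142.5 in the null males, 255.6, 230.2 and 272.5 in the null females, and 145.1, 250.3 and 328.8 (lowest, median, highest) in wild-type brains. Both null males lay below all other brains, though null 2 lay close to wild-type 5. Epha7 fell by 0.98 (SE 0.26, adjusted p = 0.0117) within males and differed by 0.21 (SE 0.27) within females, with -0.42 (SE 0.25, adjusted p = 0.324) over both sexes. The interaction was 1.19 (SE 0.38, adjusted p = 0.0492), and among fits leaving out 1 mouse it was called only without wild-type 3. It was also lost with no signal filter, with no variance trend and in the B4 mice alone. Ephb6, a receptor without kinase activity, measured 224.1 ± 46.5 (SD, n = 6) in wild-type against 277.0 ± 40.2 (SD, n = 5) in null brains by 102871_at, and 87.3 ± 22.6 (SD, n = 6) and 90.1 ± 6.32 (SD, n = 5) by 162371_r_at, log2 differences of 0.23 (SE 0.15, adjusted p = 0.345) and 0.09 (SE 0.18, adjusted p = 0.78). The log2 differences of Epha5 (-0.22), Epha6 (0.26), Epha8 (-0.22) and Ephb3 (0.07) had adjusted p from 0.466 to 0.932.

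**Figure D2:**
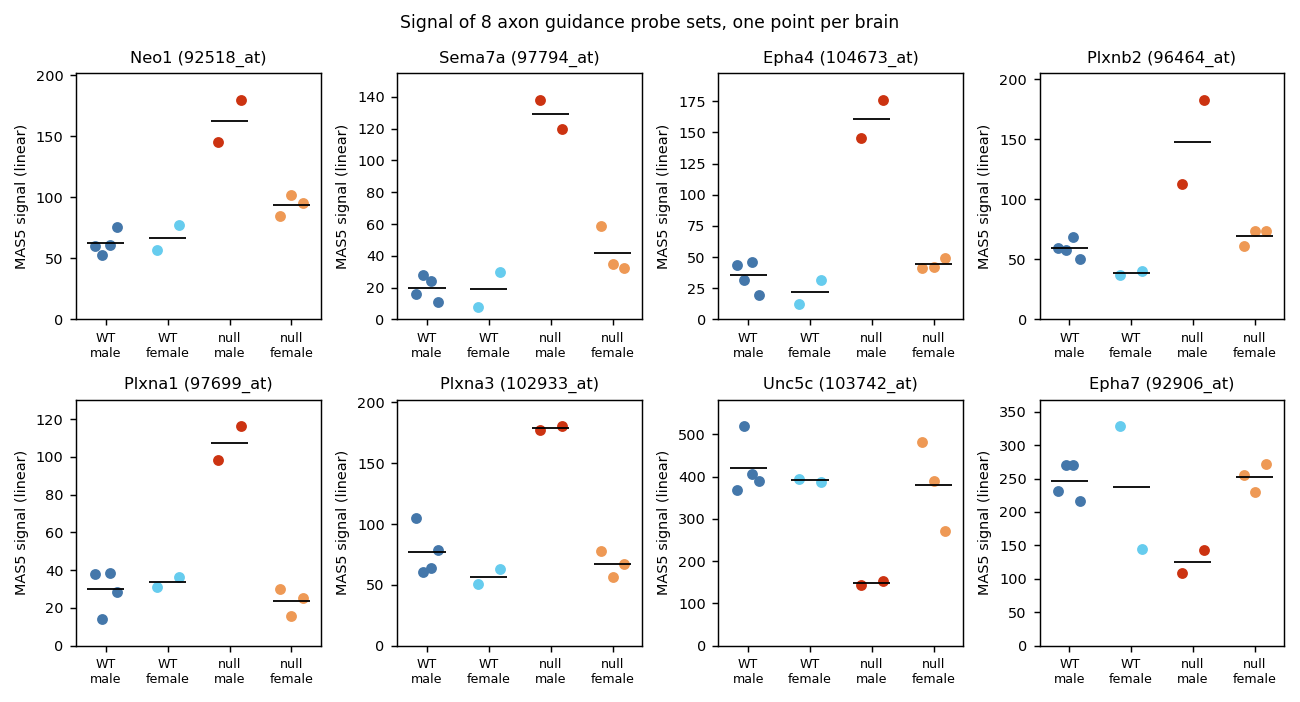
Signal of 8 guidance probe sets in every brain (y axis, linear signal from 0), 1 point per brain and a bar at the mean, for wild-type males, wild-type females, null males and null females. Neo1 and Sema7a 97794_at lie above the wild-type range in all 5 null brains. For all 8 probe sets the 2 null males lie outside the range of the other 9 brains. They lie below it for Unc5c and Epha7 and above it for the rest (Plxna1 at 98.5 and 116.4, against at most 38.3 in the others).

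Over the whole set, Neo1 and Sema7a 97794_at were the 2 of 37 probe sets whose null and wild-type brains did not overlap, both higher in null brains. Sema7a 97794_at passed the signal limit only through the null brains, and without it the count is 1, Neo1. Over all probe sets this share was 0.59% for higher and 1.09% for either direction. Both genes lie on chromosome 9, as does Chrnb4: Sema7a is 44 and Neo1 59 protein-coding genes away from it in the reference order. The other chromosome 9 members lie farther off, Robo3 at 275 genes on the opposite side and Sema3b and Sema3f at 430 and 434, and were untested for low signal. The part of chromosomal position in these differences was not tested.

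The comparison within each sex asked whether the genotype difference was the same in males and females. Within males, 12 of 37 guidance probe sets passed the adjusted threshold, 32.4% against 32.6% of all probe sets, a share close to the background. Of these 10 rose (Efna3, Efnb3 94160_at, Epha4, Neo1, Plxna1, Plxna2, Plxna3, Plxnb2 96464_at, Sema6d and Sema7a 97794_at) and 2 fell (Epha7 and Unc5c). Besides Efna3 and Plxna2, leaving out null 1 ended the calls of Epha7 and Sema6d, and leaving out null 2 those of Plxna1 and Efnb3, with 8 calls in each case, when 18% and 16.3% of all probe sets passed. With the Gapdh ratio as a further covariate 0 of 37 passed within males and 0 for the interaction, as did 0% of all probe sets. The split of 10 higher and 2 lower became 9 and 5 after quantile normalization and 8 and 7 after median centring. Over all probe sets the calls within males were 1330 higher and 1103 lower as deposited. They were 1120 and 1425 after quantile normalization and 763 and 2008 after median centring. The median of all probe sets within males moved from 0.05 to -0.08 and -0.23 between these scalings. The guidance median within males was 0.29, 0.11 and 0.01 in the same order, above the median of all probe sets under each scaling.

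Both null males lay above the other 9 brains for 12 guidance probe sets (background 20.7%) and below them for 3 (background 16.5%). Within females 0 of 37 passed, as did 0% of all probe sets. At an unadjusted p under 0.05 there were 5 (Epha4, Neo1, Nrp1 95016_at, Plxnb2 96464_at and Sema7a 97794_at), 13.5% against 4.13% of all probe sets, with only 2 wild-type females behind them. With the null males left out and sex as covariate, 0 of 37 passed (0% of all probe sets). At an unadjusted p under 0.05 there were then 4 (Epha4, Nrp1 95016_at, Plxnb2 96464_at and Sema7a 97794_at), 10.8% against 3.54%, and Neo1 was not among them. With no covariate, a setting chosen after seeing the data, 0 of 37 passed against 0.0134% of all probe sets. The unadjusted count was then 2, Neo1 and Sema7a 97794_at, 5.41% against 3.53%. Sema7a 97794_at is in each of these unadjusted counts, although it passed the signal limit only through the null brains. Without it, Neo1 alone is left in the last count. The genotype difference was larger in size in males than in females for 29 of 37 probe sets (75.8% of all probe sets), and in the same direction for 20 (49.3% of all). The interaction was called for 3 of 37 (Epha7, Plxna1 and Unc5c), 8.11% against 15.9% of all probe sets. The calls of Epha7 and Plxna1 were lost without wild-type 5, null 1 or null 2, when fewer of all probe sets were called as well. Each of these fits leaves a sex and genotype with 1 mouse. Over the fits leaving out 1 mouse, the Unc5c interaction ran from 1.23 to 1.64.

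**Figure D3:**
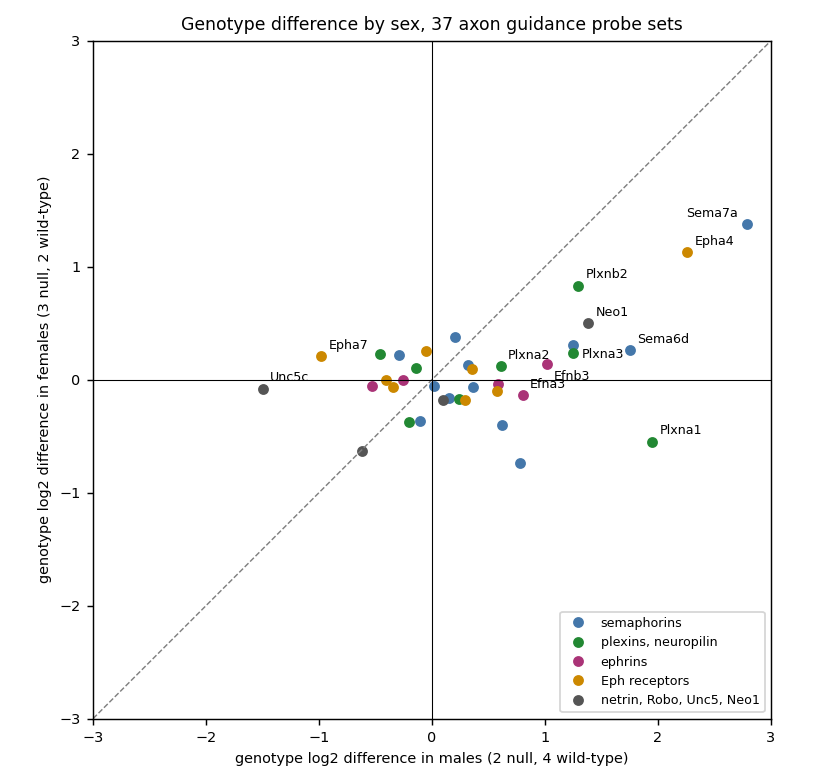
Genotype difference within males (x axis, log2) against that within females (y axis, log2) for the 37 tested guidance probe sets, 1 point each, with the line of equal differences. For 29 of the 37 the difference is larger in size in males, with Sema7a at 2.79 and 1.38, Plxna1 at 1.95 and -0.55 and Unc5c at -1.50 and -0.08.

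Between the sexes, with genotype as covariate, 0 of 37 guidance probe sets passed the adjusted threshold, as did 0% of all probe sets. At an unadjusted p under 0.05 there were 10, or 27% against 12.4%, with 8 lower in females (background 7.54%) and 2 higher (background 4.88%). The lower ones were Efna3 (-0.69), Efnb3 94160_at (-0.71), Epha4 (-1.27), Plxna2 (-0.66), Plxna3 (-0.90), Plxnb2 96464_at (-0.81), Sema4d (-0.49) and Sema7a 97794_at (-0.93), and the higher ones Ephb6 102871_at (0.33) and Unc5c (0.58), all log2 differences, female minus male (SE 0.15 to 0.42, adjusted p 0.261 to 0.392). The split of 8 lower and 2 higher became 6 and 3 after quantile normalization and 6 and 7 after median centring. Of all probe sets past an unadjusted p of 0.05 for sex, 39.3%, 57.65% and 85.21% were higher in females under these scalings in turn. The 2 null males are among the 6 males behind these values. Without them 0 of 37 passed for sex, as did 0% of all probe sets (lowest guidance adjusted p = 0.549). The sex difference of Unc5c then turned to -0.092. Among wild-type brains alone, mean Unc5c was 421.6 in males and 392.0 in females. The other listed probe sets kept their direction in the wild-type means, Sema7a 97794_at only barely (19.8 in males, 19.0 in females). Sema4d had 66.1 to 104.1 in females and 102.3 to 149.3 in males, which overlapped by a narrow margin. For 0 guidance probe sets did the sexes not overlap (background 0.403%). The median guidance difference was -0.13 as deposited, 0.03 after quantile normalization and 0.06 after median centring, while the median of all probe sets went from -0.01 to 0.05 and 0.17.

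Where 2 probe sets of 1 gene were both tested, the pairs gave a measure that cancels the scaling of an array. The log2 ratio of the brighter to the dimmer Sema7a probe set was 0.81 and 0.95 in the null males and 2.40 to 5.36 in the other 9 brains. For Plxnb2 it was 0.20 to 1.05 against 1.27 to 2.67, and for Efnb3 0.72 to 1.09 against 1.92 to 2.76. In these 3 genes the null males did not overlap the rest, and the ratio was lower in them. For Sema4b they did not overlap either, but the ratio was higher in the null males, 0.40 and 0.64 against -0.73 to 0.35. For Nrp1 and Ephb6 the ratios of the null males lay within those of the others. The share of such pairs that separate over all genes was not computed. The genotype differences of the brighter and dimmer probe sets were -0.23 and 2.12 for Sema7a, 0.04 and 1.07 for Plxnb2, and -0.14 and 0.60 for Efnb3. Within females the genotype differences of the brighter and dimmer probe sets were -0.37 and 1.38 for Sema7a and -0.17 and 0.83 for Plxnb2. For Efnb3 they were -0.0059 and 0.14. The pairs thus disagreed within a gene, and for Sema7a and Plxnb2 not only in males. The null males are also the brains whose Gapdh and Actb ratios stood apart, and the part of these ratios was not tested. Probe positions along the transcripts were not used here, and their part was not tested.

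**Figure D4:**
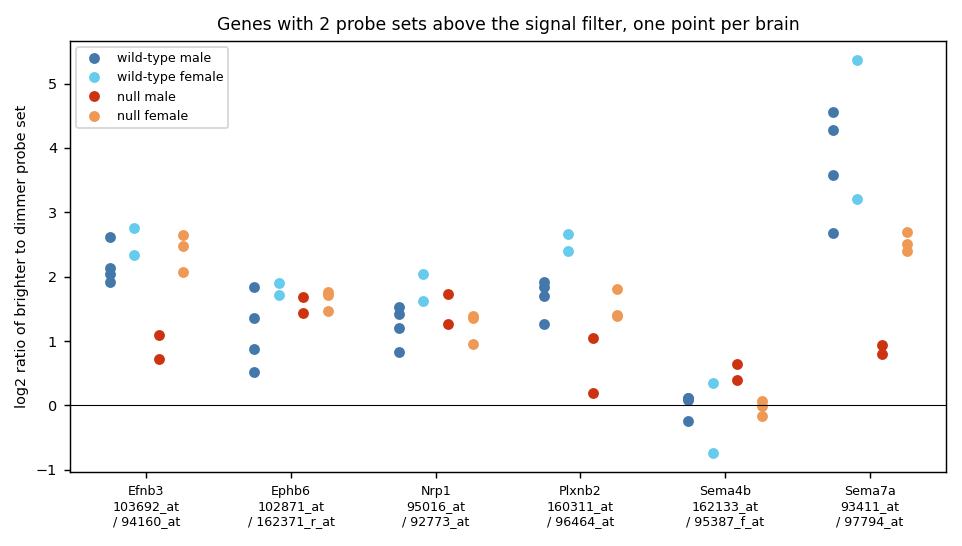
Log2 ratio of the brighter to the dimmer probe set of the same gene (y axis) in every brain, for the 6 pairs with both probe sets tested, coloured by genotype and sex. The null males lie lowest for Sema7a (0.81 and 0.95), Plxnb2 and Efnb3, highest for Sema4b, and within the others for Nrp1 and Ephb6.

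Other genes of the pathway were followed through a list of 188, among them guidance co-receptors, adhesion molecules, cytoskeletal and collapsin response proteins, kinases and adaptors. Of these 138 were on the arrays and 107 were tested. None passed the adjusted threshold for genotype (0 of 107, lowest adjusted p = 0.0773), and at an unadjusted p under 0.05 there were 12 higher and 21 lower, 30.8% against 23.1% of all probe sets. Their median log2 difference was -0.04. Leaving out wild-type 3 gave 3 adjusted calls, leaving out wild-type 5 gave 21, and there was 1 in the B4 mice alone, in fits that called 2.62%, 11.8% and 0.349% of all probe sets. The 6 with the lowest p were Kif5a, an axonal kinesin motor (1.75), Tenm4, a teneurin adhesion molecule (1.13), Nras, a small GTPase (-0.80), Ngef, the exchange factor ephexin that acts below EphA4 (-0.65), Basp1, a growth cone protein (-0.50), and Abl1, a kinase that acts below Robo receptors (-0.55). In males and females the differences were 2.90 and 0.47 for Kif5a, 1.53 and 0.68 for Tenm4 and -1.36 and -0.17 for Nras. For Ngef they were -1.12 and -0.13, for Basp1 -0.67 and -0.31 and for Abl1 -0.84 and -0.23. With the null males left out and sex as covariate, the unadjusted p of these 6 in limma ran from 0.0950 to 0.352. The counts given here for the list include the null males. Cytoskeletal and collapsin response genes were past an unadjusted p of 0.05 in 46.4% of 28 tested, kinases and adaptors in 24.1% of 29, adhesion molecules and co-receptors in 26.3% of 19, and ligands and cofactors in 16.7% of 12.

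The spread among wild-type brains bears on all of these values. The median coefficient of variation over the 6 wild-type brains was 24.0% for the guidance probe sets and 19.5% for all tested probe sets. Markers of the cell types that a whole brain holds were summed in each brain as a check of tissue. Summed neuronal markers (9 of 12 measured) were 11957 to 14792 in wild-type, 14301 to 15346 in null female and 15767 to 16277 in null male brains. Microglial markers (9 of 9) were 1044 to 1437, 1104 to 1217 and 1624 to 1888, and mural cell markers (6 of 6) 208.3 to 287.4, 245.7 to 261.5 and 323.4 to 335.4, in the same order. Choroid plexus markers (5 of 6) were 1947 to 2927, 2393 to 2695 and 1459 to 1530, and blood markers (2 of 4) 2355 to 6073, 3694 to 5716 and 2159 to 2191. The null males thus lay outside the range of the other brains for these 5 lists. For oligodendrocytes (7 of 9 measured), their precursors (2 of 5), astrocytes (7 of 9), endothelium (8 of 10), meningeal fibroblasts (6 of 6) and pituitary (5 of 5) they lay within or across it, and 0 measured markers were at 0. The part of cell composition in the guidance results was not tested.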

How the data were processed

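Whole-brain RNA of 11 mice was hybridised to 1 array each after TRI Reagent extraction, spin-column cleaning and biotin labelling with an Enzo kit, per the labels' protocols. The deposited values are linear intensities. Per the submitters' processing notes the tool was MAS5, whose version and settings are not given in the sources used here. The number of arrays limits the precision of every value. The 66 control probe sets were left out of the tests, and genes were named from the array annotation, updated to the RefSeq table of GRCm38.p6, where 1 gene was listed (10855 probe sets).

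Intensities under the 10th percentile (3.1) were raised to it, log2 values taken, and probe sets with a mean under the 40th percentile (4.69) not tested, leaving 7453. Differences were fitted over all of these with limma 3.58.1 in R 4.3.3 (lmFit, eBayes with a trend, Benjamini-Hochberg over all probe sets tested, threshold 0.05): genotype with sex as covariate, sex with genotype as covariate, and a model with their interaction for the differences within each sex. Log2 differences understate the fold of signals near the floor, and a probe set's level was not compared with another gene's. The scripts were tested on simulated data.

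The members, lists and tests were chosen with earlier results of these data known, so they are no independent support. The genotype difference with its SE and adjusted p is given for members with an unadjusted p under 0.05 for genotype, sex or interaction, and values, ranges or counts for the rest. Of the other pathway genes, each through its brightest probe set, the 6 with the lowest p are named. One group of that list is not reported here by itself. Alternatives were 2 other scalings, other floors and filters, a pseudocount of 16, no variance trend, age, number letters or the Gapdh ratio as covariates, no covariate, each mouse left out, the B4 mice alone, and the null males left out.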

Additional observations from a re-analysis of the deposited data

Results flagged for a closer look

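For 3 guidance probe sets the genotype difference was not the same in the sexes by the interaction test of limma. The difference in females minus that in males was 1.42 for Unc5c (adjusted p = 0.00816), -2.50 for Plxna1 (adjusted p = 0.0164) and 1.19 for Epha7 (adjusted p = 0.0492). Each rests on 2 null males and 2 wild-type females, and the null males are also the brains with the lowest Gapdh and Actb ratios.

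In 4 of 74 groups of member values examined, 1 brain lay far from the rest of its genotype by Dixon's criterion, which chance meets in about 1 of 20 groups. Efnb2 was 271.2 in null 3, the highest null brain. Ephb6 162371_r_at was 131.4 in wild-type 1, the highest wild-type brain. Sema6d was 16.1 in wild-type 4, the lowest wild-type brain, and Unc5c was 520.3 in wild-type 2, the highest wild-type brain.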

How the results depend on the processing

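No paired analysis was possible because the replicate numbers were given in accession order and pair no mice. With each of the 11 mice left out in turn, the number of guidance probe sets called for genotype ranged from 0 to 8, for sex from 0 to 1 (Epha4, without wild-type 5), for the interaction from 1 to 4, within males from 8 to 12 and within females from 0 to 0. The other pathway genes called ranged from 0 to 21, and the log2 Gapdh ratio difference from -1.55 to -1.01. Without null 1, null 2, wild-type 3 or wild-type 5 a sex and genotype is left with 1 mouse, assumed to vary like the other groups. The same holds in the B4 mice, whose only wild-type female is wild-type 3. The highest leave-one-out counts for genotype, sex, the interaction and the pathway genes came from fits without wild-type 3 or wild-type 5. Leaving out wild-type 1, 2, 4 or 6 or null 3, 4 or 5 instead, the interaction was called for 11.4% to 18.9% of all probe sets. Within males the share was then 28.1% to 33.4%, for genotype 0.0134% to 0.121%, and for sex and within females 0%. In the B4 mice alone (for the Gapdh ratio a setting chosen after seeing the data) the counts were 2 for genotype, 1 for sex, 1 for the interaction and 1 for the pathway genes, against 0.349%, 0.134%, 8.64% and 0.349% of all probe sets, and the Gapdh difference was -1.24 (exact permutation p = 0.0714). With number letters as a block the interaction count was 7, when 21.2% of all probe sets were called. With a filter at the 60th percentile, which tests fewer probe sets, the count within males was 7, against 40.3% of the probe sets tested. With the Gapdh ratio as covariate the counts within males and for the interaction were 0, as for all probe sets, and the log2 differences turned to -0.026 for Plxna2 and -0.066 for Sema6d over both sexes and to -0.22 for Plxna2 within males. Without the null males the sex difference of Unc5c was -0.092. Without them and with no covariate, an alternative chosen after seeing the data, the genotype differences were -0.056 for Efnb3 94160_at, -0.17 for Plxna2 and -0.041 for Plxna3. The cause of these changes was not tested. Over all settings, the values of named members kept direction and side of the threshold in 761 cases, lost a call in 59, gained one in 15 and turned in 7. The genotype and sex values had no call in the main fit and so could not lose one. The losses all come from values within males or for the interaction, so the 761 overstate how firm the calls are.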
